A study of Mus musculus with 14 samples.

Results

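The glutathione S-transferases described here were 10 genes of the 19751 that could be named on the array. They were Gstp1 and Gstp2 of the pi class, Gsta2, Gsta3 and Gsta4 of the alpha class, Gstm1, Gstm3 and Gstm6 of the mu class, and Gstt1 and Gstt3 of the theta class. Members were chosen by symbol, and the RefSeq accessions of 17 array probes mapped to them. Expression was measured in liver of CD-1 mice, an outbred strain, that were males (M) and females (F) aged 3, 4 or 8 wk, and no treatment or genotype was named for any group. Each of the 6 groups (M3, F3, M4, F4, M8 and F8) was represented by 2 pools of liver RNA, with 5 mice in a pool at 3 wk and 6 mice in a pool at 4 and 8 wk, so that differences between single mice could not be seen. Groups were compared by competitive hybridization in 7 comparisons on 14 two-color arrays. The sexes were compared at each age (M8/F8, M4/F4 and M3/F3), and 8 wk was compared with the younger ages within females (F8/F4 and F8/F3) and within males (M8/M4 and M8/M3). The 2 arrays of a comparison used different pools and exchanged dyes.

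Glutathione S-transferases attach the tripeptide glutathione to electrophilic compounds, among them drugs, plant toxins and products of lipid peroxidation. The conjugates are exported from hepatocytes and broken down to mercapturic acids. The soluble enzymes form dimers within a class, and liver is the organ best known for their abundance. Several of them are induced by the transcription factor Nrf2, encoded by Nfe2l2, and adult rodent liver is known for sex differences in drug-metabolizing enzymes that follow the pattern of growth hormone secretion.

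Values are log2 ratios, where M8/F8 is male over female at 8 wk and M8/M3 is male liver at 8 wk over male liver at 3 wk. A fitted ratio is the estimate of limma from all 14 arrays, given with its standard error (SE). A gene was called at a Benjamini-Hochberg adjusted p below 0.05 in limma if its ratio also exceeded 1.5 or was less than 0.667, and if the signal of 1 group or both was well above background on each array. Each gene was represented by its brightest probe. For all 10 genes this probe was well above background in all 28 channels, so that no ratio rested on a dim signal. A value without array 1 is from the fit that left out that array of the comparison, or of both comparisons in a difference, with all other arrays and the dye term kept.

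The upstream sequences of Gstp1 and Gstp2 are shown because these neighboring genes on chromosome 19 gave the largest M8/F8 ratios of the 10 genes and had the most closely correlated levels. The 250 bases before each annotated start were taken from RefSeq (build GRCm38.p6), at chr19:4037913-4038162 for Gstp1 and chr19:4042222-4042471 for Gstp2, both on the minus strand. They are written 5′ to 3′, and capitals mark the AP-1 type motif TGAGTCA.
Gstp1: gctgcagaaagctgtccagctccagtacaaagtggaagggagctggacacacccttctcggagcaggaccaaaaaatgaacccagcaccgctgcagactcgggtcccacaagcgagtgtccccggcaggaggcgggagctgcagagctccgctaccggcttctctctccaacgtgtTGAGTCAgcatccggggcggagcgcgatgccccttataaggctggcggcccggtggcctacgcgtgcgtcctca
Gstp2: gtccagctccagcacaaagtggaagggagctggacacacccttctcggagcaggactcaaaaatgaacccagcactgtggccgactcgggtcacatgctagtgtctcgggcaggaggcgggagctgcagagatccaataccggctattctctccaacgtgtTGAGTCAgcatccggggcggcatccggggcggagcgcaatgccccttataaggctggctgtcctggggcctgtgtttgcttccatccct
In a global alignment the sequences were identical at 209 of 265 columns (78.9%). The motif began 74 bases before the start of Gstp1 and 89 bases before that of Gstp2. It was searched for on both strands after the sequences had been read, and 4.46% of 32851 RefSeq promoter windows of this length hold it. The antioxidant response element core TGACNNNGC, the STAT5 palindrome TTCNNNGAA and the HNF4-type motif CAAAGTCCA did not match in either window. Only these exact patterns were sought, so other forms of such sites would have been missed. Windows of 9 of the 10 members (all but Gsta4), 13 in all, were searched. Among them TGACNNNGC, held by 10.2% of all windows, matched in Gsta3, TTCNNNGAA (7.02% of all) matched in 1 of the 3 windows of Gstm6, and CAAAGTCCA (0.384% of all) matched in none.

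The labels of sex and dye were checked with Xist and 3 Y-linked genes (Ddx3y, Uty and Eif2s3y), which were called in the direction of their sex at every age. All 6 hepatocyte markers were bright enough to be tested in every comparison. Markers of other cell types moved with age and sex. All 5 genes of dividing cells fell from 3 or 4 to 8 wk in both sexes (fitted log2 ratios from -5.14 to -2.32), as did 4 of the 5 erythroid genes measured. With covariance from the shared pools, 3 of the erythroid genes were called lower in M8/M3. In M8/F8, 3 of 6 Kupffer cell markers were lower in males (range of all 6 from -1.05 to -0.54), and Top2a of the dividing cell genes was lower too (a call lost with covariance from the shared pools), whereas the 6 hepatocyte markers ranged from -0.57 to 0.57 and the 6 bile duct markers from -0.29 to 0.73 without a call (1 of the latter was called higher with that covariance). At 4 wk, Spp1 of the bile duct markers (0.92) and Alas2 of the erythroid genes (0.78) were higher in males and Marco of the Kupffer cell markers was lower (-0.69), while the medians of these lists were 0.35, -0.19 and -0.29. From 3 to 8 wk in males, Alb fell (-0.71) and Serpina1a rose (0.83) among the hepatocyte markers, with a median of -0.03 over the 6 genes. Of the bile duct markers, 1 rose and 2 fell in males over this time (1 fell with covariance from the shared pools), and 1 rose and 1 fell in females. Of the Kupffer cell markers, 2 fell in males, with Marco at -2.20, and 1 fell in females (Marco, -1.58). From 4 to 8 wk, Alb (-0.68), 2 Kupffer cell and 2 stellate cell markers fell in males, whereas in females Tat rose (0.65) and 1 Kupffer cell and 2 stellate cell markers fell. Over this time 1 bile duct marker rose and 1 fell in each sex (2 fell in males with that covariance), and 1 endothelial marker fell in males. Of 5 stellate cell markers, 3 fell from 3 to 8 wk in males and 2 in females, and of 5 endothelial markers 1 fell in each. Of the lymphocyte markers, 1 of 4 tested fell in M8/M3. The part of these shifts in the values below was not tested. In whole liver, fewer cells of a type and less RNA per cell cannot be told apart.

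At 3 wk the sexes did not differ detectably in any member, whereas at 8 wk 6 of the 10 genes were called. In M3/F3, limma called 0 members, with 0 at an unadjusted p below 0.05 and 0 by the error-weighted averages, and 0.464% of all probes tested were called. In M4/F4, 1 member was higher in males (0.551% of all probes tested) and 1 was higher in females (0.889%). The former, Gstp2, was not called with covariance from the shared pools (adjusted p = 0.24). In M8/F8, 4 members were higher in males (Gstp1, Gstp2, Gstm1 and Gstm6, against 2.81% of all probes) and 2 were higher in females (Gstt1 and Gstt3, against 3.49%). The median log2 ratio of the 10 genes was 0.02 between the sexes at 3 wk, compared with -0.13 at 4 wk and 0.65 at 8 wk, and that of all probes tested was 0.00, 0.00 and 0.01. The pi and mu class genes called at 8 wk were higher in males, and the 2 theta class members were higher in females.

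In male liver, 4 members rose from 3 to 8 wk (Gstp1, Gstp2, Gsta2 and Gstm6, against 8.24% of all probes that rose) and none fell (8.56% of all probes fell). The same 4 genes rose in M8/M4 (4.65% of all probes rose and 5.43% fell, with 0 members falling). In female liver, 2 members rose from 3 to 8 wk (Gstm6 and Gstt3, against 5.31% of all probes that rose and 5.52% that fell). In F8/F4, limma called 0 members, with 1 at an unadjusted p below 0.05 and 0 by the error-weighted averages, and 5.41% of all probes were called. M8/F8, M8/M3 and M8/M4 share the M8 pools, and their values are not independent of each other.

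**Figure D1:**
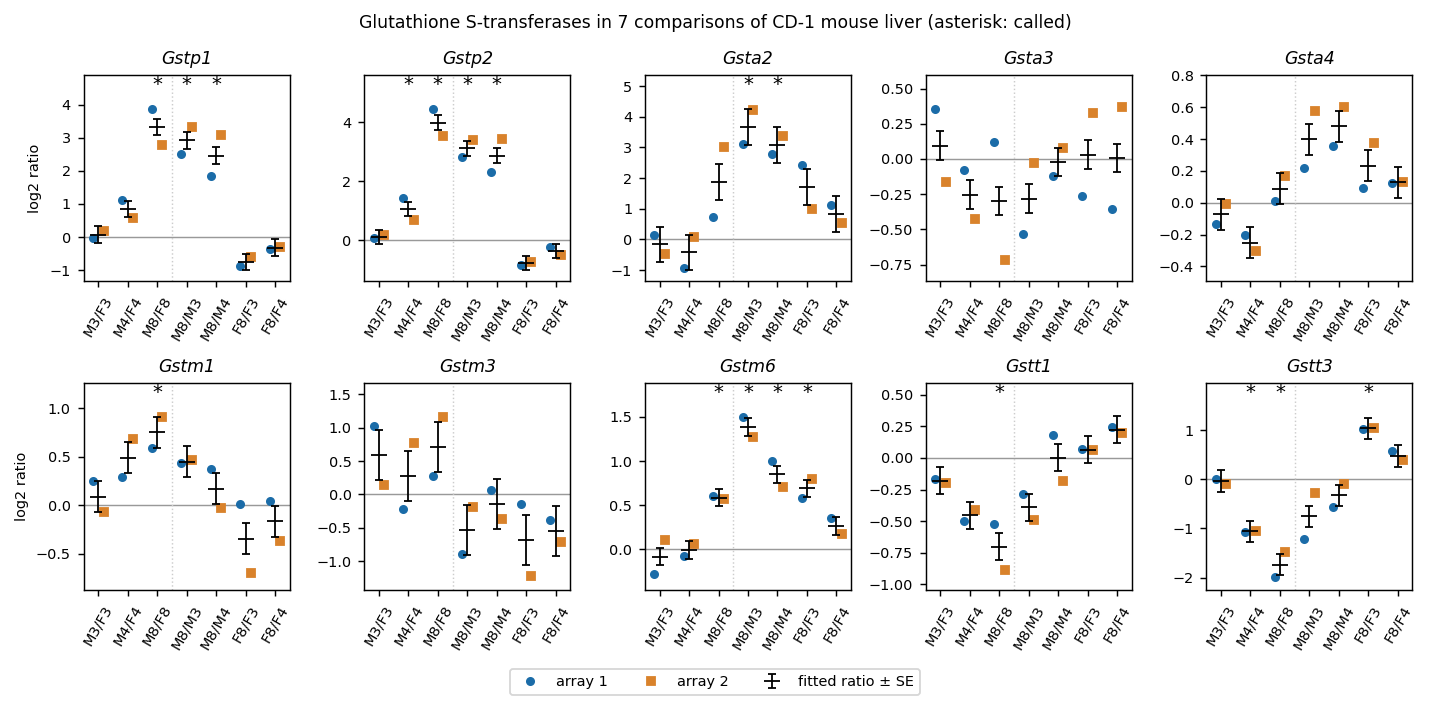
Log2 ratio of each of the 10 genes (vertical axis, scaled separately for each gene) in the 7 comparisons (horizontal axis), with a circle for array 1, a square for array 2, and a bar with whiskers for the fitted ratio ± SE; an asterisk marks a call. Gstp1 and Gstp2 stand above 2.7 in M8/F8 on both arrays and Gstt3 stands below -1.4.

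Gstp1 and Gstp2 encode pi class enzymes, which conjugate acrolein and other small electrophiles and bind the kinase JNK. Both were far higher in adult male than in adult female liver. Their coding sequences are nearly identical, and it was not tested how far RNA of one gene binds to the probe of the other, so the values are given for each gene but may be shared. For Gstp2 the log2 ratio in M8/F8 was 4.43 and 3.52 on the 2 arrays (fitted ratio 3.98 ± 0.25 SE, 15.8-fold, adjusted p = 0.000266 in limma). For Gstp1 it was 3.86 and 2.78 (3.32 ± 0.25, 10.0-fold, adjusted p = 0.000485). The male excess was therefore large on both arrays, and array 1 gave the higher value for both genes.

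At 4 wk the male to female ratios of the pi class genes were lower. For Gstp2 the M4/F4 arrays read 1.43 and 0.68, and the fitted ratio of 1.06 ± 0.25 was called (adjusted p = 0.0326). The call was lost with the replicate block (adjusted p = 0.0508), with covariance from the shared pools (adjusted p = 0.24), without array 1 (0.88, adjusted p = 0.233) and without array 2 (1.24, adjusted p = 0.105). For Gstp1 the arrays read 1.12 and 0.57, and the fitted ratio of 0.84 ± 0.25 was not called (adjusted p = 0.074), although the other probe of Gstp1 was called at 0.80 (adjusted p = 0.0119). The other probe of Gstp2 was called at 0.84 (adjusted p = 0.043), a call lost with covariance from the shared pools (adjusted p = 0.315). The ratio of both genes was positive on both arrays at 4 wk. At 3 wk the arrays read 0.06 and 0.16 for Gstp2 and -0.04 and 0.18 for Gstp1, with a 95% interval of the fitted ratio from -0.52 to 0.67 for Gstp1.

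In male liver the pi class genes rose with age. In M8/M3, Gstp2 read 2.82 and 3.41 (fitted 3.11 ± 0.25, 8.65-fold, adjusted p = 0.00058) and Gstp1 read 2.52 and 3.33 (2.92 ± 0.25, 7.58-fold, adjusted p = 0.000764). In M8/M4, Gstp2 read 2.31 and 3.42 (2.86 ± 0.25, adjusted p = 0.000782) and Gstp1 read 1.85 and 3.07 (2.46 ± 0.25, adjusted p = 0.0014). The other probe of Gstp2 gave lower fitted ratios, 2.83 in M8/M3 and 2.38 in M8/M4. Both genes were thus higher at 8 wk on all 4 arrays of male liver. In F8/F3 the ratios lay below 0 on both arrays, at -0.83 and -0.73 for Gstp2 and at -0.88 and -0.62 for Gstp1, but neither fitted ratio was called (adjusted p = 0.0916 and 0.106). The error-weighted averages called both lower (-0.78 for Gstp2 and -0.74 for Gstp1), and so did the mean of all Gstp1 probes (-0.73, adjusted p = 0.0466). The other probe of Gstp1 was called there at -0.72 (adjusted p = 0.0183), a call lost with covariance from the shared pools (adjusted p = 0.0638).

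The change from 3 to 8 wk differed between the sexes for both pi class genes. This interaction, M8/M3 minus F8/F3, was 3.89 ± 0.35 for Gstp2 (adjusted p = 0.00361 in limma) and 3.67 ± 0.35 for Gstp1 (adjusted p = 0.00469). Arrays of M8/M3 and F8/F3 were scanned on different days. Computed instead as M8/F8 minus M3/F3, whose arrays were all scanned on 1 day, the difference was 3.87 ± 0.35 for Gstp2 (adjusted p = 0.00355) and 3.25 ± 0.35 for Gstp1 (adjusted p = 0.00666). The same pools enter both forms, so this does not test the spread between pools. The interaction from 4 to 8 wk was 3.23 ± 0.35 for Gstp2 (adjusted p = 0.0124) and 2.78 ± 0.35 for Gstp1 (adjusted p = 0.0208). With slide as a block the latter were not called (adjusted p = 0.0544 and 0.0737). With covariance from the shared pools, Gstp2 from 3 to 8 wk was still called (adjusted p = 0.035), but Gstp1 was not (adjusted p = 0.06), and neither gene was called from 4 to 8 wk (adjusted p = 0.111 and 0.218). The other probe of Gstp1 kept both calls there (3.44 from 3 to 8 wk, adjusted p = 0.0044, and 2.70 from 4 to 8 wk, adjusted p = 0.0217). Without array 1 the interaction from 3 to 8 wk was 4.13 for Gstp2 (adjusted p = 0.0737) and 3.95 for Gstp1 (0.0831), and without array 2 it was 3.64 (0.0845) and 3.40 (0.1), so that its direction did not rest on 1 array but its call needed both. The interaction from 4 to 8 wk was 2.55 for Gstp2 (adjusted p = 0.0918) without array 2, and for Gstp1 it was 2.78 without a dye term (0.0531), 3.36 (0.0575) without array 1 and 2.20 (0.185) without array 2.

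Relative levels in the 12 pools were derived from the ratios by least squares, each relative to the mean of the 6 pools of its replicate. The log2 level of Gstp2 was 2.83 ± 0.03 (SD, n = 2 pools) in M8, 0.04 ± 0.26 in M4, -0.30 ± 0.10 in M3, -0.42 ± 0.04 in F3, -0.93 ± 0.21 in F4 and -1.22 ± 0.03 in F8. No neighbors in this order overlapped between pools. For Gstp1 the order was M8 (2.45 ± 0.09), M4 (0.05 ± 0.22), F3 (-0.36 ± 0.10), M3 (-0.38 ± 0.10), F4 (-0.75 ± 0.08) and F8 (-1.01 ± 0.04), and only F3 and M3 overlapped. The separation of M8 from M4, at 2.39 or more against 0.20 or less for Gstp1, was the widest gap in either order.

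**Figure D2:**
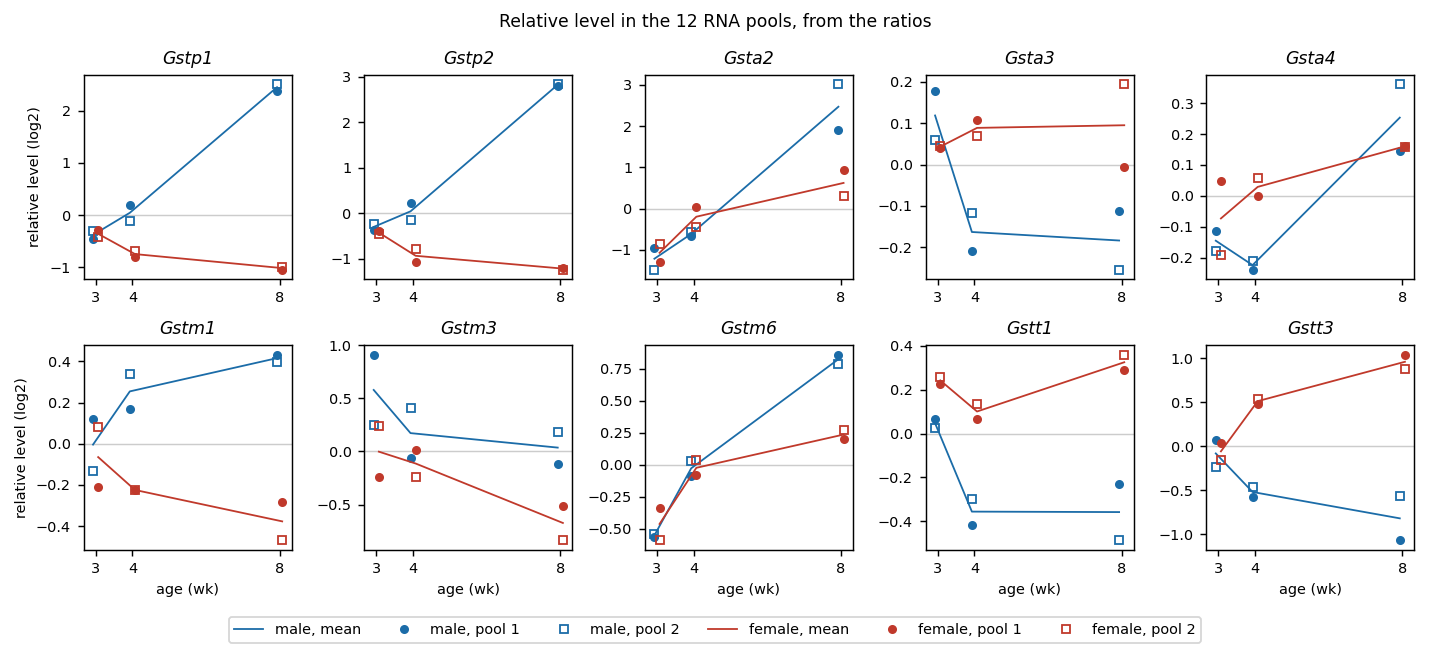
Relative level of each gene on the log2 scale (vertical axis, scaled separately) in the 12 RNA pools against age in weeks, in males (blue) and females (red); filled circles are pool 1, open squares pool 2 and lines join the means of 2 pools. Male and female pools of Gstp1, Gstp2, Gsta2, Gstm6 and Gstt3 overlap or nearly so at 3 wk and are separate at 8 wk.

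Gsta2 encodes an alpha class enzyme that conjugates many electrophiles and reduces lipid hydroperoxides. It rose in male liver with age and varied strongly between pools. In M8/M3 its arrays read 3.11 and 4.22 (fitted ratio 3.66 ± 0.58 SE, 12.7-fold, adjusted p = 0.00763 in limma), and in M8/M4 they read 2.79 and 3.36 (3.07 ± 0.58, 8.43-fold, adjusted p = 0.015). All 4 arrays of male liver were thus higher at 8 wk. In F8/F3 the arrays read 2.44 and 0.99, also positive, and the fitted ratio of 1.72 ± 0.58 was not called (adjusted p = 0.111), but it was called with the shared pools in the covariance (adjusted p = 0.0499). In M8/F8 the arrays read 0.74 and 3.02, which was the widest gap between arrays of any member in that comparison. The fitted ratio of 1.88 ± 0.58 was not called (adjusted p = 0.0844), but it was called with the shared pools in the covariance (adjusted p = 0.0365) and without array 1 (2.95, adjusted p = 0.0491), whereas without array 2 it was 0.81 (adjusted p = 0.603).

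In levels, pool 1 of M8 stood at 1.92 and pool 2 at 3.03 for Gsta2, whereas pool 1 of F8 stood at 0.94 and pool 2 at 0.30. The order of means was M8 (2.47 ± 0.79, SD, n = 2 pools), F8 (0.62 ± 0.45), F4 (-0.20 ± 0.35), M4 (-0.61 ± 0.07), F3 (-1.07 ± 0.32) and M3 (-1.21 ± 0.37), and only F3 and M3 overlapped. Both sexes were therefore highest at 8 wk. The interaction of sex and age was not called from 3 to 8 wk (1.95 ± 0.82, adjusted p = 0.277) or from 4 to 8 wk (2.25 ± 0.82, adjusted p = 0.303). Without array 2 of M8/M3 its fitted ratio was 2.76 and was not called (adjusted p = 0.0842), and in M8/M4 it was not called without array 1 (3.66, adjusted p = 0.0516) or array 2 (2.49, adjusted p = 0.15).

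Ratios of Gsta3 and Gsta4 were small. Gsta3 encodes a major alpha class enzyme of mouse liver, known for the conjugation of aflatoxin B1 epoxide. Its array ratios lay between -0.72 and 0.37 over the 7 comparisons and it was called in none of them. In M8/F8 it read 0.12 and -0.72, with opposite signs on the arrays. Gsta4 encodes the enzyme best known for conjugating 4-hydroxynonenal, a product of lipid peroxidation. Its M8/M3 arrays read 0.22 and 0.58 (fitted 0.40 ± 0.10, adjusted p = 0.037) and its M8/M4 arrays read 0.36 and 0.60 (0.48 ± 0.10, adjusted p = 0.0188), which passed the adjusted p but not the ratio threshold of 1.5. The fold of Gsta4 in M8/M4 was 1.40, and its 95% interval on the log2 scale ran from 0.25 to 0.71.

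Of the mu class genes, Gstm6 rose with age in both sexes. The mu class enzymes conjugate epoxides and aromatic substrates. In M8/M3 Gstm6 read 1.4996 and 1.27 (fitted 1.39 ± 0.10 SE, 2.61-fold, adjusted p = 0.000387 in limma), and in M8/M4 it read 1.00 and 0.70 (0.85 ± 0.10, adjusted p = 0.00219). In F8/F3 it read 0.58 and 0.80 (0.69 ± 0.10, 1.61-fold, adjusted p = 0.00482). All 6 of these arrays were higher at 8 wk, and the male values from 3 wk exceeded the female ones. The other 2 probes of Gstm6 were called in the same 3 comparisons.

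In M8/F8 Gstm6 read 0.60 and 0.57, and its fitted ratio of 0.59 ± 0.10 (adjusted p = 0.00907) lay just above the ratio threshold. The other 2 probes, at 0.40 (adjusted p = 0.068) and 0.49 (0.0692), were not called. The ratio was 0.49 without array 1 (adjusted p = 0.0913), 0.55 with normexp and loess and 0.50 for the mean of all its probes, all below the threshold. The interaction from 3 to 8 wk was 0.69 ± 0.14 (adjusted p = 0.0432), with adjusted p = 0.0632 under the replicate block, 0.0413 with the shared pools in the covariance, 0.0944 with slide as a block and 0.0742 without a dye term. It was 0.47 without array 1 (adjusted p = 0.307) and 0.92 without array 2 (0.0943), and the other 2 probes gave 0.44 (0.224) and 0.48 (0.278). F8/F3 of Gstm6 was 0.48 without array 2, below the ratio threshold. The levels ran from M8 (0.83 ± 0.05, SD, n = 2 pools) and F8 (0.24 ± 0.05) through F4 (-0.02 ± 0.08) and M4 (-0.03 ± 0.08) to F3 (-0.46 ± 0.18) and M3 (-0.55 ± 0.01), with overlap of the sexes at 4 wk and at 3 wk but not at 8 wk.

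Gstm1 encodes an abundant mu class enzyme of liver. It was higher in adult males, at 0.59 and 0.91 in M8/F8 (fitted 0.75 ± 0.16, 1.68-fold, adjusted p = 0.0224), and its second probe gave 0.76 (adjusted p = 0.00852). The call was lost without array 1 (0.78, adjusted p = 0.115) or array 2 (0.72, adjusted p = 0.141). In M4/F4 Gstm1 read 0.29 and 0.69, also positive. Its levels were ordered M8 (0.42 ± 0.02), M4 (0.25 ± 0.12), M3 (-0.00 ± 0.18), F3 (-0.06 ± 0.21), F4 (-0.22 ± 0.00) and F8 (-0.38 ± 0.13), and only M3 and F3 overlapped. Levels thus stood highest in M8 and lowest in F8.

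Pools of the same group differed widely for Gstm3 on its brightest probe. Its M3/F3 arrays read 1.02 and 0.15, its M4/F4 arrays -0.22 and 0.78, and its M8/F8 arrays 0.27 and 1.16. It was called in no comparison. The other probe of Gstm3 differed less at 4 and 8 wk, at 0.24 and 0.43 in M4/F4 and 0.48 and 0.68 in M8/F8. At 3 wk that probe read 0.75 and 0.06 in M3/F3, and it was not called either. In M3 the level from the brightest probe was 0.91 in pool 1 and 0.25 in pool 2. In the order of groups, 4 of the 5 pairs of neighbors overlapped. F8 stood lowest, at -0.67 ± 0.23.

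Gstt1 and Gstt3, the theta class members, were higher in females at 8 wk. Gstt2 and Gstt4, theta class genes outside the members, were not called in M8/F8. Theta class enzymes act on small halogenated compounds such as dichloromethane, and Gstt1 is the best known of them. Gstt3 read -1.99 and -1.48 in M8/F8 (fitted -1.74 ± 0.22 SE, 3.33-fold, adjusted p = 0.00309 in limma) and -1.07 and -1.05 in M4/F4 (-1.06 ± 0.22, 2.09-fold, adjusted p = 0.0203). At 3 wk the arrays read 0.01 and -0.09. Gstt3 was therefore higher in females on all 4 arrays at 4 and 8 wk and near 0 at 3 wk. The M4/F4 call was lost without array 1 (-0.99, adjusted p = 0.149), without array 2 (-1.14, 0.101) and when p was adjusted within the comparison (0.0889).

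With age Gstt3 rose in females, whereas its male ratios were below 0. In F8/F3 it read 1.03 and 1.04 (fitted 1.03 ± 0.22, 2.05-fold, adjusted p = 0.0224), a call that was lost without array 1 (0.98, adjusted p = 0.155) or array 2 (1.09, 0.119). In M8/M3 it read -1.22 and -0.29 (-0.75 ± 0.22, adjusted p = 0.0679), which was not called, although it was called with the shared pools in the covariance (adjusted p = 0.0484). Without array 1 it was -0.28 (adjusted p = 0.56) and without array 2 it was -1.23 (0.0235). The interaction from 3 to 8 wk was -1.79 ± 0.31 (adjusted p = 0.0276, and 0.0247 with the shared pools), with -1.33 without array 1 (adjusted p = 0.214) and -2.24 without array 2 (0.0752). From 4 to 8 wk the interaction of Gstt3 was -0.81 ± 0.31 and was not called (adjusted p = 0.327). Its levels were ordered F8 (0.96 ± 0.12, SD, n = 2 pools), F4 (0.51 ± 0.04), F3 (-0.06 ± 0.14), M3 (-0.08 ± 0.21), M4 (-0.52 ± 0.08) and M8 (-0.82 ± 0.35), with overlap of F3 with M3 and of M4 with M8.

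Gstt1 showed a smaller female excess. It read -0.52 and -0.89 in M8/F8 (fitted -0.70 ± 0.11, 1.63-fold, adjusted p = 0.00651), and without array 2 the ratio of -0.46 was below the threshold. In M4/F4 it read -0.50 and -0.41 (-0.45 ± 0.11, adjusted p = 0.0339), which passed the adjusted p only, and in M3/F3 it read -0.16 and -0.19. All 6 arrays that compared the sexes were thus below 0 for Gstt1. Its levels were ordered F8 (0.33 ± 0.05), F3 (0.24 ± 0.02), F4 (0.10 ± 0.05), M3 (0.05 ± 0.03), M4 (-0.36 ± 0.08) and M8 (-0.36 ± 0.18), and overlap was found between F4 and M3 and between M4 and M8.

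**Figure D3:**
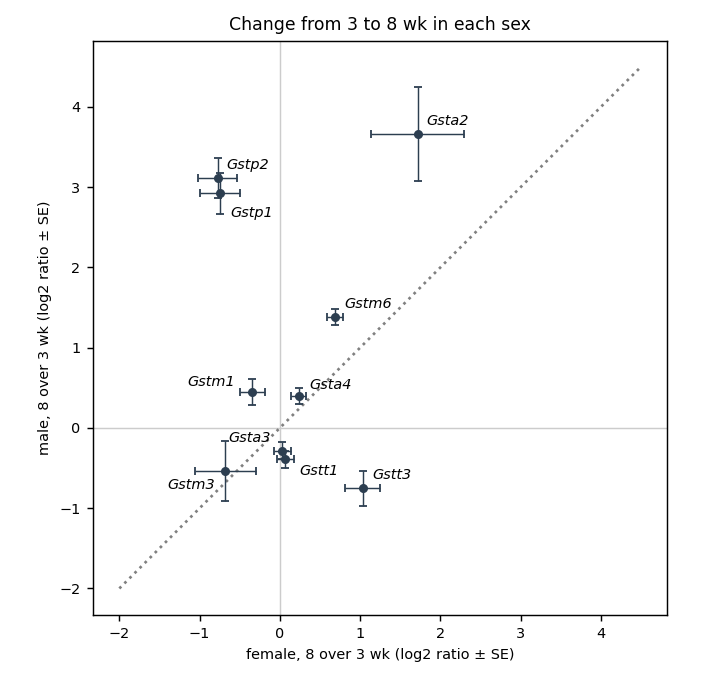
Fitted log2 ratio ± SE of 8 over 3 wk in males (vertical axis) against the same ratio in females (horizontal axis) for the 10 genes; the dotted line marks equal change in both sexes. Gstp1 and Gstp2 lie near 3 in males and below 0 in females, Gsta2 and Gstm6 lie above 0 in both sexes, and Gstt3 lies above 0 in females and below 0 in males.

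The difference of the age changes between the sexes was called for 4 members from 3 to 8 wk. It was positive for Gstp1, Gstp2 and Gstm6 (1.67% of all probes) and negative for Gstt3 (1.55%). From 4 to 8 wk it was called for 2 members, Gstp1 and Gstp2 (0.801% of all probes). With covariance from the shared pools, 3 were called from 3 to 8 wk, without Gstp1 (adjusted p = 0.06), and neither from 4 to 8 wk (adjusted p = 0.218 and 0.111). The change from 3 to 4 wk was not hybridized directly. Taken through the M8 pools (M8/M3 minus M8/M4), limma called 0 members in males, with 2 at an unadjusted p below 0.05 (0.228% of all probes were called). Through the F8 pools it called 0 members in females, with 1 at an unadjusted p below 0.05 (0.0897% of all probes). With covariance from the shared pools, 0 members were called in males, but 169 of all probes were called upward and 166 downward. There Gstm6 passed the adjusted p only (0.54, adjusted p = 0.0429).

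Across the 12 pools, the levels of the members were compared as a description, since the pools share arrays and dye terms. Gstp1 and Gstp2 correlated at r = 0.998 and Gsta2 with Gstm6 at r = 0.915, whereas Gstm1 and Gstt3 ran opposite to each other (r = -0.892). Among 3217 named genes other than the members, with a range of at least 1 log2 unit, those most like Gstp1 were Atg16l2 (r = 0.993), Capn8 (0.989) and Ppp1r1b (0.989), and those most like Gstp2 were Atg16l2 (0.990), Ppp1r1b (0.987) and Cyp2u1 (0.984). Gsta2 was most like Gm10639 (r = 1.00) and Gsta1 (0.997), near-identical genes of the same family whose RNA may bind to the same probes, and then Stac2 (0.979). Gstm6 was most like Nars2 (r = 0.980), Ak4 (0.977) and Trex2 (0.976). Gstt3 was most like Papss2 (r = 0.988), Fibin (0.978) and Sult1d1 (0.973), and Gstt1 was most like Tox (0.951), Mat1a (0.937) and Fam110b (0.927). For Gstm1 the 3 genes were Meig1 (r = 0.954), Serpina7 (0.951) and Mep1b (0.936). The likeness was lowest for Gsta3, with Fam110b (r = 0.891), Popdc2 (0.889) and Guca2b (0.869), and for Gstm3, with Slc25a17 (0.900), C2cd4a (0.875) and Mboat1 (0.873). The points are pools of different ages and sexes, and no test was made.

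Of 17 further genes of the glutathione transferase families, 16 were bright enough to be tested in M8/F8, where 2 were called and both were higher in females (3.49% of all probes were). Mgst3, a microsomal enzyme that also acts in leukotriene synthesis, read -0.99 and -0.77 (fitted -0.88 ± 0.13 SE, adjusted p = 0.00586 in limma) and rose in females in F8/F3 (0.73 ± 0.13, adjusted p = 0.012). Gsto2, which reduces dehydroascorbate, read -0.66 and -0.63 in M8/F8 (-0.65 ± 0.15, adjusted p = 0.0352) and was higher at 8 than at 4 wk in both sexes, by 0.76 ± 0.15 in males and 0.92 ± 0.15 in females. Gsta1, whose sequence is close to that of Gsta2, read 2.98 and 4.22 in M8/M3 (3.60 ± 0.62, adjusted p = 0.0102). In M8/F8 Gsta1 read 0.88 and 3.16 (2.02 ± 0.62, adjusted p = 0.0804), which was not called here but was called with covariance from the shared pools. Mgst2, another microsomal enzyme, fell in F8/F3 (-0.93 ± 0.22, adjusted p = 0.0314) and F8/F4 (-0.87 ± 0.22, adjusted p = 0.0401), but neither call was kept with the shared pools in the covariance. Over the 16 genes tested, 2 rose and 1 fell in M8/M3 (8.24% and 8.56% of all probes), and 2 rose and 1 fell in F8/F3 (5.31% and 5.52%).

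Enzymes that supply glutathione were called in both directions. Of 11 genes on this list, 10 were tested in M8/F8, and 1 was higher (2.81% of all probes were) and 2 were lower in males (3.49%). Mat1a, which makes S-adenosylmethionine, was lower in males (-1.37 and -1.39, fitted -1.38 ± 0.06, adjusted p = 0.000117), and so was Cth, which forms cysteine from cystathionine (-0.84 and -0.94, -0.89 ± 0.16, adjusted p = 0.0118). Gclc, the catalytic subunit of the rate-limiting enzyme of glutathione synthesis, was the gene higher in males and is named after its values were seen (1.05 and 0.63, 0.84 ± 0.13, adjusted p = 0.00623). Ggct, an enzyme of glutathione turnover, fell in M8/M3 (-1.12 ± 0.12) and F8/F3 (-0.68 ± 0.12), and Oplah, which recycles 5-oxoproline, rose in M8/M3 (0.88 ± 0.13) and F8/F3 (0.64 ± 0.13).

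Among 10 genes of conjugate export and breakdown, 9 were tested in M8/F8 and 1 was called, higher in males as were 2.81% of all probes. This was Nat8, which acetylates cysteine conjugates to mercapturic acids and has near-identical neighbors, at 2.65 and 3.45 (fitted 3.05 ± 0.39, adjusted p = 0.00329). It also rose in M8/M3 (2.69 ± 0.39, adjusted p = 0.0054) and its F8/F3 arrays read -0.52 and -0.56. Abcc3, a basolateral exporter of conjugates, rose from 3 to 8 wk in males (1.72 ± 0.08) and females (1.22 ± 0.08), and its M8/F8 ratio was not called (0.28 ± 0.08, adjusted p = 0.0761). Dpep1, a dipeptidase, was lower in M8/M4 (-0.94 ± 0.21), a call not kept with the shared pools, and Ggt6, a gamma-glutamyltransferase, rose in F8/F3 (0.76 ± 0.19). Of 8 other enzymes that use glutathione, only Glo1, the first enzyme of methylglyoxal removal, was called, in M8/M3 (1.98 and 1.17, 1.57 ± 0.35, adjusted p = 0.0284), where 8.24% of all probes rose.

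Of 9 regulators of transferase transcription and markers of the Nrf2 response, 2 were called in M8/F8 and both were lower in males (3.49% of all probes were). Nqo1, a quinone reductase and standard target of Nrf2, read -0.976 and -0.998 (fitted -0.99 ± 0.14, adjusted p = 0.00465), and fell in M8/M3 (-1.19 ± 0.14, adjusted p = 0.00228). Other markers of this response, Txnrd1 (0.43), Srxn1 (0.77) and Hmox1 (0.22), had ratios above 0 in M8/F8 and were not called. Nr1i3, the receptor CAR that induces drug-metabolizing enzymes, was lower in males in M8/F8 (-0.62 ± 0.08, adjusted p = 0.00383) and rose in F8/F3 (0.82 ± 0.08, adjusted p = 0.00135). Ahr, the aryl hydrocarbon receptor, fell in M8/M3 (-0.71 ± 0.10, adjusted p = 0.0048).

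**Figure D4:**
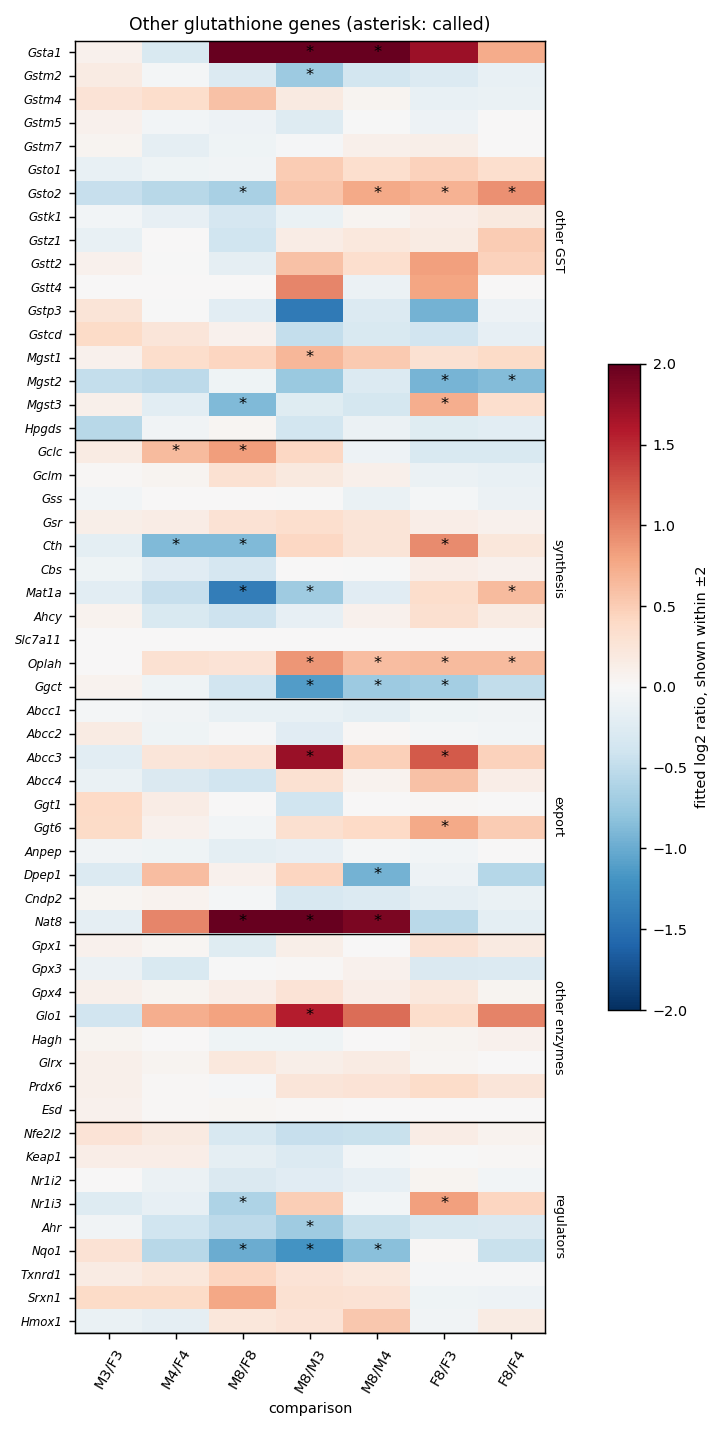
Fitted log2 ratio (color, shown within ±2) of the genes of 5 further lists (rows) in the 7 comparisons (columns), with an asterisk for a call. The M3/F3 column holds no asterisk, and Gsta1 (3.60) and Nat8 (2.69) exceed the color range in M8/M3.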

How the data were processed

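Liver RNA pools of CD-1 mice had been hybridized to 14 two-color Agilent arrays. Feature Extraction (10.7.1.1, per the headers of the scanner output) was run by the authors, with linear and LOWESS dye normalization. The deposited values were log10 ratios of red over green, log10 errors of these ratios, and processed and median intensity for each spot. Flags of another kind (well above background, outlier) were given too. The log10 ratio table of the series, deposited by the authors, was equal to the scanner values (largest difference 0). Of the 43020 spots of an array left after controls were removed, 55.2 to 77.2% were well above background in a channel. The number of arrays limits the precision.

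Ratios were turned to log2, oriented by the dye in the labels, and averaged over spots of a probe (39429 probes, 26055 named by RefSeq accession). The text of the methods gives the dyes of M3/F3 the other way round, and Xist and Y-linked genes bore out the labels. R 4.3.3, limma 3.58.1 and data.table (version 1.17.8) were used. The fit had 7 comparisons and 1 dye term (6 residual and 0.856 prior degrees of freedom). Benjamini-Hochberg adjustment ran over all probes in all comparisons at once, and separately in each contrast. Samples were grouped by the labels. The series design states that the pools were reused, so replicate numbers pair the arrays. As a check, replicate differences from the age comparisons and from the sex comparisons correlated at r = 0.882 (3 wk) and 0.878 (4 wk) over 21650 probes. Members and lists were chosen with earlier results of these data known. The brightest probe stood for a gene. From the other lists, up to 4 genes with the largest ratio among calls were named, and 3 genes by likeness for each member (the likeness of Gsta4 is not reported here). The test was tried on simulated data. Alternatives were the replicate block, slide as a block, shared pools in the covariance (pool to array variance 2.50), normexp (offset 50, on medians because means were not at hand) with loess, no dye term, other filters, thresholds and adjustments, error-weighted averages (p below 0.0001, an approximation of the Rosetta model), all probes of a gene, leaving out arrays, and, chosen after seeing the data, bright probes only and the sex by age differences taken from the sex comparisons. Hbb-b1 and Ahsp had no named probe. The arrays of M8/M3 and of the sexes at each age were scanned on one day and those of M8/M4, F8/F3 and F8/F4 on another, so each comparison lies within 1 scan day. Pools stand for mice only as means. The main fit took the arrays as independent although pools were reused, so its p-values do not fully measure the spread between pools. In the fit with the shared pools, 83.3% of the variance was assigned to pools.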

Additional observations from a re-analysis of the deposited data

Results flagged for a closer look

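The change with age differed between the sexes for 4 members, by a test of the difference itself in limma (1.67% of all probes were called upward and 1.55% downward from 3 to 8 wk, and 0.801% upward from 4 to 8 wk). From 3 to 8 wk the male change exceeded the female change by a log2 value of 3.67 for Gstp1 (adjusted p = 0.00469), 3.89 for Gstp2 (0.00361) and 0.69 for Gstm6 (0.0432). For Gstt3 the difference was -1.79 (adjusted p = 0.0276), with the female change the higher. From 4 to 8 wk it was 2.78 for Gstp1 (adjusted p = 0.0208) and 3.23 for Gstp2 (0.0124). The array ratios of M8/M3 were above 0 and those of F8/F3 below 0 on every array for Gstp1 and Gstp2, and the reverse held for Gstt3. Without either replicate, 0 members were called from 3 to 8 wk. With covariance from the shared pools, Gstp1 from 3 to 8 wk (adjusted p = 0.06) and both calls from 4 to 8 wk (0.218 and 0.111) were lost, whereas the other probe of Gstp1 was called in both (0.0044 and 0.0217). The call of Gstm6 was lost with the replicate block (adjusted p = 0.0632), with slide as a block (0.0944) and without a dye term (0.0742). Taken from the sex comparisons, all on 1 scan day, the differences from 3 to 8 wk were 3.25 for Gstp1, 3.87 for Gstp2, 0.67 for Gstm6 and -1.70 for Gstt3. Those from 4 to 8 wk were 2.48 for Gstp1 and 2.92 for Gstp2, and all 6 were called. The same pools enter both forms and were not in the covariance, so these calls do not test the spread between pools. No group was large enough for a test of single outlying samples.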

How the results depend on the processing

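Over the 33 ratios and differences of members that were called in the main fit or under an alternative, no direction changed under the alternatives run. The error-weighted averages gave values for 27 of them, without the sex differences in the change with age, and the differences taken from the sex comparisons, chosen after seeing the data, for 6. Counts of called members stayed within 1.5 times of the main count in M3/F3, M8/F8, M8/M3, M8/M4 and F8/F4 under all alternatives run for them, and so did the changes from 3 to 4 wk, for which error-weighted averages were not made. In M4/F4, where 2 members were called, 1 was called with the replicate block, with slide as a block, with shared pools in the covariance, without a dye term and with the error-weighted averages, and 0 with adjustment within each comparison and without either array (0 to 0). In F8/F3, with 2 called, the error-weighted averages gave 4 (adding falls of Gstp1 and Gstp2), and 0 to 1 were called without 1 of the arrays. For the sex difference of the change from 3 to 8 wk, with 4 called, the count was 0 to 0 without 1 array. From 4 to 8 wk, with 2 called, it was 0 with slide as a block, 0 with shared pools in the covariance, 1 without a dye term, and 0 to 1 without 1 array. The paired analysis with the replicate block ended 2 calls of single members, Gstp2 in M4/F4 and Gstm6 in the difference from 3 to 8 wk, and changed no other. A fit of the 27392 bright probes only, chosen after seeing the data, had 1.73 prior degrees of freedom against 0.856 and added the calls of Gstp1 in M4/F4 (adjusted p = 0.0413), Gsta2 in M8/F8 (0.0464) and Gstt3 in M8/M3 (0.0379). Beyond those with the cause named, the cause of a lost call was not tested. Members were well above background in all 28 channels, and each comparison had 2 arrays.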

Other observations

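Gstp3, the third gene of the pi class on the array, did not follow Gstp1 and Gstp2. Its arrays read -0.16 and -0.25 in M8/F8, and it was called in no comparison. At 3 wk its replicates went opposite ways, at 1.84 and -1.32 in M3/F3, with -2.13 and -0.71 in M8/M3 and -0.20 and -1.70 in F8/F3.

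Gstm2, a mu class gene outside the members, was lower at 8 than at 3 wk in males (-0.73 and -0.74, fitted -0.73 ± 0.16 SE, adjusted p = 0.0228 in limma), whereas Gstm6 was higher. Mgst1, the microsomal transferase of liver, rose in M8/M3 (0.55 and 0.79, 0.67 ± 0.10, adjusted p = 0.00655). Alas2, the erythroid enzyme of heme synthesis, rose in males from 3 to 8 wk (1.37 ± 0.16, adjusted p = 0.00229) while the other 4 erythroid genes fell (3 with covariance from the shared pools). The M8/F8 arrays of Alas2 read 1.78 and 1.99 (1.89 ± 0.16, adjusted p = 0.000725).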
